A study of Homo sapiens with 3 samples.

Results

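The 32 genes described here encode enzymes of cholesterol and fatty acid synthesis, the SREBP transcription factors with the proteins that hold or release them, and a pair of sterol transport proteins. They were taken by gene symbol from a named list of these pathways, which was chosen with earlier results of these data known. All 32 were found among the 16149 genes listed in at least 1 of 3 libraries. Relative to the parental line, most mRNAs of the mevalonate and sterol enzymes were lower in both derived lines, with SQLE, IDI1 and HMGCS1 among the lowest ratios. The mRNA of the transcription factor SREBF1 was higher in both. Most genes of fatty acid synthesis were lower by less. FADS2 was the lowest of them in 1 derived line, and in the other it was level with FASN.

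mRNA was sequenced from 3 cultured lines of human hepatocellular carcinoma (HCC), with 1 library per line. All 3 carry the cell line label HCCLM3, a line that spreads from liver xenografts in nude mice. The parent is labelled as having low metastasis ability, subclone 1 as having higher ability specific to lung, and subclone 2 as dual, to lung and celiac lymph node. The study asked which properties accompany organ-directed spread of HCC. According to its methods, the parental line expressed red fluorescent protein (HCCLM3-R) and was described there as highly metastatic, and the derived lines each grew from a single cell of a lung or lymph node focus of a mouse xenograft. Each derived line is therefore 1 clone. The sources used here do not say which clones were sequenced. The lines grew in DMEM, with fetal bovine serum according to the methods, and no group received a treatment. With 1 library per line, no test between lines was possible, and every difference below is a difference between libraries.

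Cells make cholesterol from acetyl-CoA through the mevalonate pathway, which builds isoprenoid units and joins them into squalene, and through a sterol arm that closes the rings and trims them to cholesterol. Fatty acids are made from the same acetyl-CoA by carboxylation, chain synthesis, elongation and desaturation. The SREBP factors are held in the endoplasmic reticulum by SCAP and the INSIG proteins when sterols are plentiful, and when sterols fall they are cut, enter the nucleus and raise transcription of most genes of both pathways. The liver is a main site of both.

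The library totals used in the deposited RPKM (reads scaled to gene length and library total) were computed back as 4488825 to 4725150 reads. In each library 99.9% of this total lay in the listed genes, so it is close to a count of reads assigned to genes. Shares of the reads below are shares of these totals. Of the hepatocyte markers, HNF4A stood at 11.7 to 16.0 RPKM and the keratin KRT8 at 1614 to 1742, while TTR, APOA1 and SERPINA1 were below 1 in every library and APOA2 and GPC3 were listed in none. The 11 listed of 13 such markers summed to 2622 RPKM in the parent, with 2847 in subclone 1 and 2924 in subclone 2. Nearly all of this came from the keratins KRT8 and KRT18 (953 to 1075 RPKM), so the sum says little of the other markers. TF was at 5.71 RPKM in the parent and 5.88 in subclone 2, with 30.3 in subclone 1. ALB, the liver's main secreted protein, was at 2.46 RPKM in the parent, with 49.5 in subclone 1 and 68.8 in subclone 2. ALB was thus higher in both subclones, in which most sterol genes were lower. Its part in the differences below was not tested. The fibroblast list (4 of 5 listed) summed to 3.25 to 7.08 RPKM, with COL1A1 and COL1A2 below 1 and PDGFRB in none. Its other members went opposite ways, COL3A1 at 4.42, 2.21 and 0.463 RPKM and DCN at 0.773, 4.42 and 2.75 in the parent, subclone 1 and subclone 2, and their part in the differences below was not tested. The endothelial list (3 of 3) summed to 3.38 to 9.89 RPKM, nearly all from PECAM1. The leukocyte list (3 of 4) summed to 75.5 to 112 RPKM, nearly all from CD68, while PTPRC, which marks white blood cells, was below 1 throughout. In a bulk library, fewer cells making an mRNA and less of it per cell cannot be told apart.

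The genes were among the more abundant mRNAs of these cells. Of the 32, 24 had a mean RPKM above 11.1, the median of the 11370 genes whose mean over the libraries reached 1 RPKM, and 9 were in the highest 10% of those genes. These 11370 are called the expressed genes below. The median of the 32 means was 26.1 RPKM. SCD, the desaturase that makes oleate from stearate, was highest at a mean of 214 RPKM, and TM7SF2, a sterol reductase, was lowest at 1.45. After SCD came FDPS (115 RPKM), ACLY (90.6), FDFT1 (84.6) and ELOVL5 (75.4). These are levels per length, so they can be compared between genes. Together the 32 genes took 0.560% of the reads in the parent (95% binomial interval 0.553% to 0.567%), with 0.452% in subclone 1 (0.446% to 0.458%) and 0.466% in subclone 2 (0.460% to 0.472%). Both subclones thus had a smaller share than the parent, with intervals that do not overlap. All intervals here are exact, at 95%, and cover counting error only, not the variation between cultures.

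**Figure D1:**
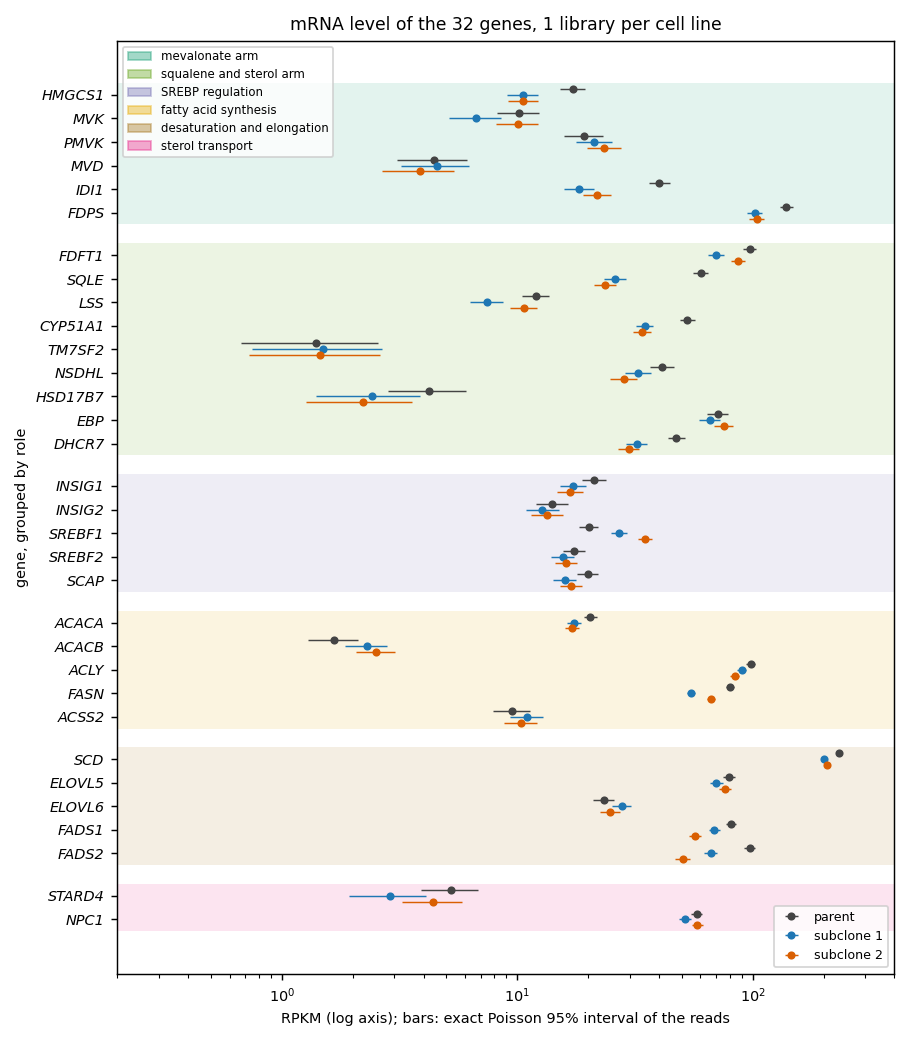
Level of each of the 32 genes in the parent (black), subclone 1 (blue) and subclone 2 (orange), in RPKM on a log axis, grouped by role. Points are the deposited values and bars the exact Poisson 95% interval of the reads. The parent lies to the right of both subclones for most genes of the upper bands, and SREBF1 lies in the opposite order, at 20.1, 27.1 and 35.0 RPKM.

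Relative to the parent, 25 of the 32 genes were lower in subclone 1 and 24 were lower in subclone 2, and 23 were lower in both. Among the expressed genes, 38.3% were lower in both subclones. The 2 comparisons share the parental library, so a high or low value there moves both ratios. The median log2 ratio of the 32 genes was -0.27 in subclone 1 and -0.21 in subclone 2, beside 0.00 and 0.04 over the expressed genes. Ratios on the log2 scale were taken after adding 0.1 RPKM to each value. The genes higher in both subclones were 6 of 32, namely PMVK, TM7SF2, SREBF1, ACACB, ACSS2 and ELOVL6, against 42.2% of expressed genes. In opposite directions were 3, against 19.4%. Under division by ACTB or GAPDH the direction turned for TM7SF2 and MVD in subclone 1 and for MVK and ELOVL5 in subclone 2, all with ratios near 1 there. That of NPC1 in subclone 2 turned with equal sums, centring or the upper quartile. The counts of genes in the same or opposite directions shift with these genes.

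A difference of at least 1.5-fold in subclone 1 was seen for 8 genes in the lower direction, against 7.46% of expressed genes, and for 0 genes in the higher direction, against 11.6%. These 8 were HMGCS1, MVK, IDI1, SQLE, LSS, CYP51A1, HSD17B7 and STARD4. In subclone 2, 7 genes were at least 1.5-fold lower, against 7.3% of expressed genes, and 1 was at least 1.5-fold higher, against 12.7%. The 7 were HMGCS1, IDI1, SQLE, CYP51A1, HSD17B7, DHCR7 and FADS2, and the 1 was SREBF1. After division of each library by its GAPDH value, the split was 6 lower and 2 higher. At least 1.5-fold lower in both subclones were 5 genes (HMGCS1, IDI1, SQLE, CYP51A1 and HSD17B7), against 3.82% of expressed genes. At 2-fold, IDI1 and SQLE were lower in subclone 1 (2 of 32, against 1.82% of expressed genes) and SQLE in subclone 2 (1 of 32, against 2.16%). No gene of the 32 was 2-fold higher in either subclone, against 4.9% of expressed genes in subclone 1 and 5.33% in subclone 2.

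The counting interval of the ratio lay below 1 for 21 genes and above 1 for 3 in subclone 1, against 19.4% and 20.4% of expressed genes. In subclone 2 it lay below 1 for 17 genes and above 1 for 2, against 18.3% and 23.1%. It lay below 1 in both subclones for 16 of the 32, against 13.6% of expressed genes, in comparisons that share the parental library. This rule favours deeply read genes, and the 32 genes had a median of 380 reads in the parent, against 152.5 for the expressed genes.

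**Figure D2:**
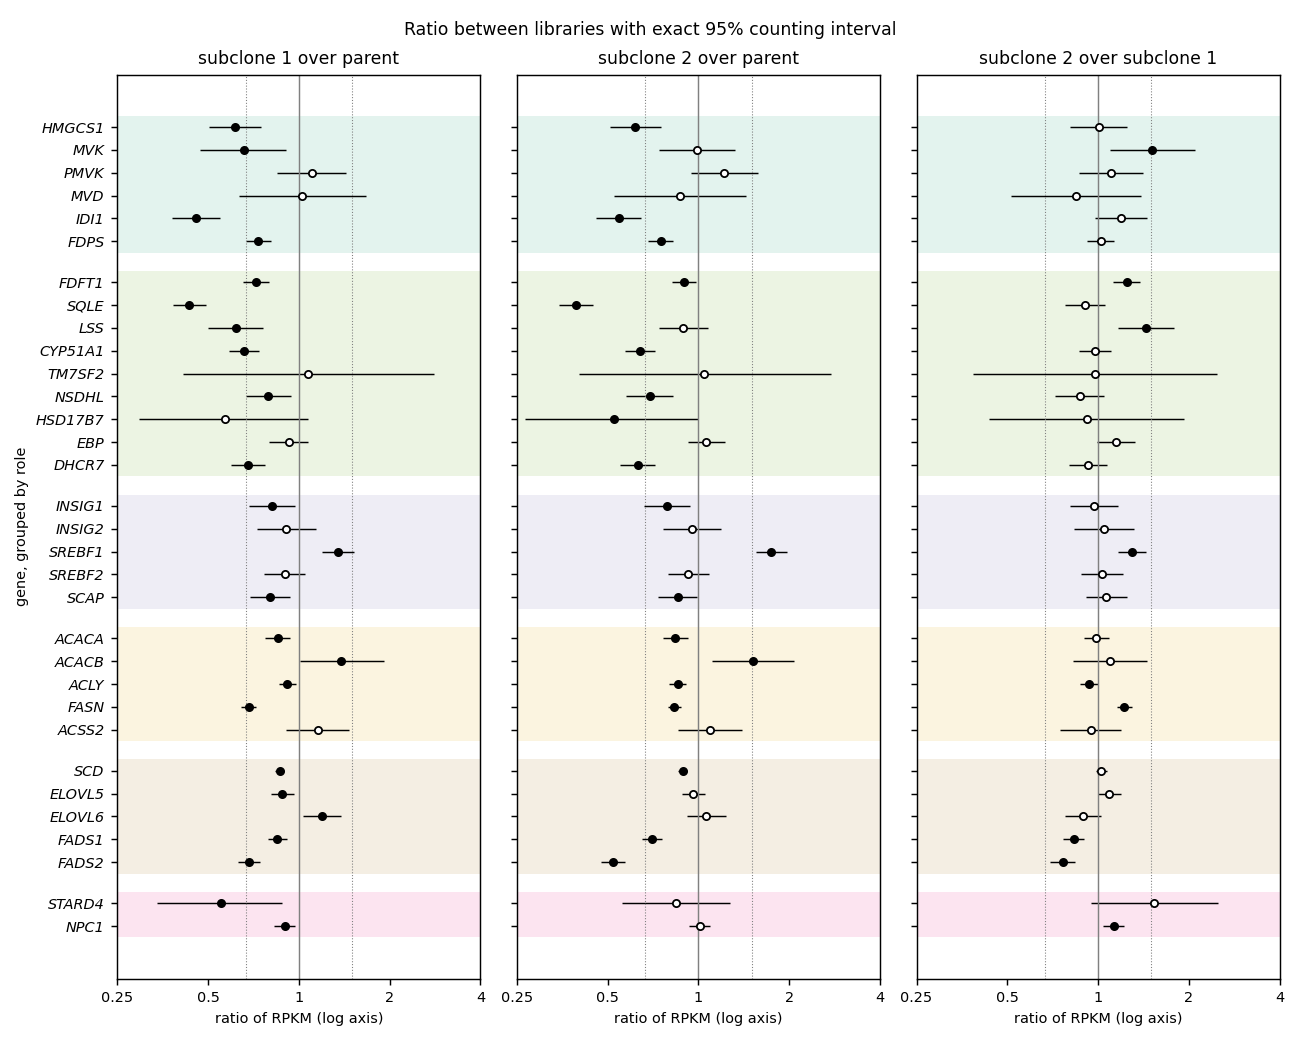
Ratio of RPKM between libraries for each of the 32 genes, on a log axis, with bars for the exact 95% counting interval. Filled points have an interval that excludes 1, and dotted lines mark 1.5-fold. In the first 2 panels most filled points lie left of 1 (21 of 32 in subclone 1 and 17 of 32 in subclone 2), and SREBF1 lies right of 1 in all 3 panels.

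The mevalonate arm holds 6 of the genes. Of these, 4 were lower in both subclones, against 38.3% of expressed genes. The counting interval lay below 1 in both for 3, against 13.6% of expressed genes. The arm summed to 230 RPKM in the parent, with 163 in subclone 1 and 174 in subclone 2. The medians of the log2 ratios were -0.52 in subclone 1 and -0.30 in subclone 2.

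HMGCS1, the synthase at the start of the arm, was at 17.2 RPKM in the parent (271 reads), 10.6 in subclone 1 (171 reads) and 10.6 in subclone 2 (176 reads). Both subclones were low and nearly equal, at 0.614 of the parent (0.504 to 0.747) and 0.617 (0.507 to 0.749). IDI1, the isomerase that supplies one of the isoprenoid building blocks, was at 40.2 RPKM in the parent (388 reads), 18.4 in subclone 1 (182 reads) and 21.9 in subclone 2 (222 reads). The parent stood clear of both subclones, whose ratios to it were 0.457 (0.381 to 0.546) and 0.544 (0.459 to 0.643). FDPS, which joins these blocks into farnesyl diphosphate, was at 139 RPKM in the parent (969 reads), 102 in subclone 1 (731 reads) and 104 in subclone 2 (765 reads). Its ratios were 0.735 (0.666 to 0.809) and 0.750 (0.681 to 0.825), closer to 1 than those of HMGCS1 and IDI1.

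MVK, mevalonate kinase, differed between the subclones, at 10.1 RPKM in the parent (95 reads), 6.65 in subclone 1 (64 reads) and 10.04 in subclone 2 (99 reads). Subclone 1 was at 0.656 of the parent (0.470 to 0.910) and subclone 2 at 0.990 (0.739 to 1.33). Exons of MVK overlap those of MMAB on the other strand in the GENCODE annotation of GRCh38. The handling of strand is not given in the sources used here, so reads of the pair may not have been separated. The same limit holds for HMGCS1, IDI1, FDPS, FDFT1, LSS, CYP51A1, ACLY, SREBF2 and STARD4. Their exons overlap those of non-coding genes on the other strand. PMVK and MVD, the next kinase and the decarboxylase, had intervals that include 1 in every comparison. PMVK ranged from 19.3 RPKM in the parent to 23.5 in subclone 2, and MVD from 3.85 in subclone 2 to 4.55 in subclone 1. MVD had 33 to 38 reads per library, and the interval of its ratio in subclone 1 ran from 0.634 to 1.67.

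The squalene and sterol arm holds 9 of the genes, of which 7 were lower in both subclones, against 38.3% of expressed genes. The counting interval lay below 1 in both for 5, against 13.6% of expressed genes. The sum of the arm was 387 RPKM in the parent, with 273 in subclone 1 and 292 in subclone 2. The medians of the log2 ratios were -0.56 and -0.54. With the mevalonate arm, these enzymes took 0.131% of the reads in the parent (0.128% to 0.135%), with 0.0879% in subclone 1 (0.0852% to 0.0906%) and 0.0936% in subclone 2 (0.0909% to 0.0964%). Of the 15 genes in these arms, 11 were lower in both subclones, against 38.3% of expressed genes. For 8 of the 15 the counting interval lay below 1 in both, against 13.6%.

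SQLE, squalene epoxidase, a rate-limiting step of the arm, had the lowest ratios of the 32 genes in both subclones. It was at 60.1 RPKM in the parent (807 reads), 26.1 in subclone 1 (359 reads) and 23.6 in subclone 2 (333 reads). The ratios to the parent were 0.433 (0.381 to 0.491) and 0.392 (0.344 to 0.446), and the subclones did not differ beyond counting error. CYP51A1, which removes the first methyl group from lanosterol, was at 52.8 RPKM in the parent (761 reads), 34.8 in subclone 1 (514 reads) and 33.9 in subclone 2 (514 reads). Both subclones again lay at nearly the same ratio, 0.658 (0.587 to 0.737) and 0.642 (0.573 to 0.719). Exons of CYP51A1 overlap those of AC000120.2 and AC000120.3 on the same strand, both annotated as protein-coding, so its values may include their reads.

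DHCR7, which catalyses a last reduction to cholesterol, was at 47.3 RPKM in the parent (566 reads), 32.2 in subclone 1 (395 reads) and 29.8 in subclone 2 (375 reads). Its ratios were 0.680 (0.596 to 0.774) and 0.629 (0.551 to 0.718), so that it passed 1.5-fold in subclone 2 alone, although the subclones' intervals overlap. NSDHL, which works on the methyl groups after CYP51A1, was at 41.2, 32.6 and 28.4 RPKM in the parent, subclone 1 and subclone 2. HSD17B7, a reductase that acts beside NSDHL, was at 4.21 RPKM in the parent (29 reads), 2.41 in subclone 1 (17 reads) and 2.21 in subclone 2 (16 reads). These few reads gave wide intervals, 0.294 to 1.07 around a ratio of 0.571 in subclone 1 and 0.266 to 0.998 around 0.524 in subclone 2. The near-identical pseudogene HSD17B7P2 was listed by itself at 0.157, 0.153 and 0.299 RPKM, and how reads shared by the pair were assigned is not given in the sources used here.

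FDFT1, squalene synthase, and LSS, which closes the sterol rings, were lower in subclone 1 than in subclone 2. FDFT1 was at 97.0 RPKM in the parent (921 reads), 69.95 in subclone 1 (682 reads) and 86.9 in subclone 2 (869 reads), with ratios to the parent of 0.721 (0.652 to 0.797) and 0.896 (0.816 to 0.984). LSS was at 11.98 RPKM in the parent (236 reads), 7.41 in subclone 1 (150 reads) and 10.7 in subclone 2 (221 reads). The LSS ratio was 0.619 in subclone 1 (0.501 to 0.763) and 0.890 in subclone 2, where the interval of 0.737 to 1.07 includes 1. EBP, a sterol isomerase, was at 71.1, 65.8 and 75.3 RPKM and TM7SF2 at 1.39, 1.49 and 1.46, with intervals that include 1 throughout. TM7SF2 had 10 or 11 reads per library, and its exons overlap those of VPS51.

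The promoter sequences of the genes were read from RefSeq (GRCh38.p14) to see what the lowered genes share. A window from 250 bases before to 50 bases after the annotated start was held for 29 of the 32 genes, and FASN, FDFT1 and SQLE had no entry. Where a gene had several windows, only the first listed was used, so other starts of a gene were not searched. The bases before the start are printed for the lowered genes HMGCS1, IDI1, CYP51A1 and HSD17B7 and for SREBF1 and SREBF2, along the strand of the gene, ending just before the start. Capitals mark CCAAT, or its reverse complement ATTGG, and in SREBF2 also TCACCCCAC, a match to the sterol response element form TCACNCCAC.
HMGCS1, chr5:43313413-43313662, minus strand: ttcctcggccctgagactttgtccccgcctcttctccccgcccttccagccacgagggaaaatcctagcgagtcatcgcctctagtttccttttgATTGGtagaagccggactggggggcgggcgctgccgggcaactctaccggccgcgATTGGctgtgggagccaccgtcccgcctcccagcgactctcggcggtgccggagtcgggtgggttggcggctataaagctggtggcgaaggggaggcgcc
IDI1, chr10:1056705-1056954, minus strand: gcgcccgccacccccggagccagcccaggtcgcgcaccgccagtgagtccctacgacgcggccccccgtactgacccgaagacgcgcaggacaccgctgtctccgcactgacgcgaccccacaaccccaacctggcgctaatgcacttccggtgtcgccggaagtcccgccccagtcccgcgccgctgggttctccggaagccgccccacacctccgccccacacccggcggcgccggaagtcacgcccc
CYP51A1, chr7:92134478-92134727, minus strand: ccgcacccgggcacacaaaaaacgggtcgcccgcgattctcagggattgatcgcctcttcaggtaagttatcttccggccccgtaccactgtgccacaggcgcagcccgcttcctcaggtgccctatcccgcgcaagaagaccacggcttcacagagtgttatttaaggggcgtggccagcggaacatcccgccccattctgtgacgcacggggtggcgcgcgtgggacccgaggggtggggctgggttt
HSD17B7, chr1:162790452-162790701, plus strand: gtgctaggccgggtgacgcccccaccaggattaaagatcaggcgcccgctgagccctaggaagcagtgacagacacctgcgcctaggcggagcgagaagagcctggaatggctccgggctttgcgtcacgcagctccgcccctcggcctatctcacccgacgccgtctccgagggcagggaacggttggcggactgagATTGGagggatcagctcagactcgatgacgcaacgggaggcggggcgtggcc
SREBF1, chr17:17836987-17837236, minus strand: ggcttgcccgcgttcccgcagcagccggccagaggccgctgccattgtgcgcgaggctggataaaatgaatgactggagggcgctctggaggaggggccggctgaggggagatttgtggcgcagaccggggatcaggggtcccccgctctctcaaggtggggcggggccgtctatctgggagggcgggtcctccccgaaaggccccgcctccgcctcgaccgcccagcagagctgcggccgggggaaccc
SREBF2, chr22:41832855-41833104, plus strand: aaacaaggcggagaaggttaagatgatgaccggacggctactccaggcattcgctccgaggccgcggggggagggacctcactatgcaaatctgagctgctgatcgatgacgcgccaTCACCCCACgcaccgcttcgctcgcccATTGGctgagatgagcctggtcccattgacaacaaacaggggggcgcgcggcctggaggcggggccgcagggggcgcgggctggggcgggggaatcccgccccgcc

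CCAAT, the core of the box bound by the factor NF-Y, stood on either strand in 17 of the 29 windows (58.6%), against 35.7% of 27305 promoters of the same length and 37.3% of the 9235 that belong to expressed genes. Of the 13 windows of the mevalonate and sterol arms, 10 held it. HMGCS1 had it at -155 and -100, counting the annotated start as 0, and HSD17B7 at -52 and at 8, past the printed bases. The windows used for IDI1, CYP51A1 and SREBF1 had none. MVK and NSDHL, neither of which was 1.5-fold lower in both subclones, had 5 matches each. CCAAT matches thus stood both in genes that were at least 1.5-fold lower in both subclones and in genes that were not.

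TCACNCCAC stood in 1 of the 29 windows (3.45%), that of SREBF2 at -133, against 1.15% of all promoters and 1.06% of those of expressed genes. GGGCGG, the GC box, stood in 25 (86.2%), against 44.6% of all promoters and 70.8% of those of expressed genes. CACGTG, the E-box, stood in 4 (13.8%), against 7.43% of all promoters and 10.4% of those of expressed genes. All motifs were searched on both strands, and matches to different motifs may overlap. A match is a description of the letters and not of binding, and sites outside the window or of another form were not searched.

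**Figure D3:**
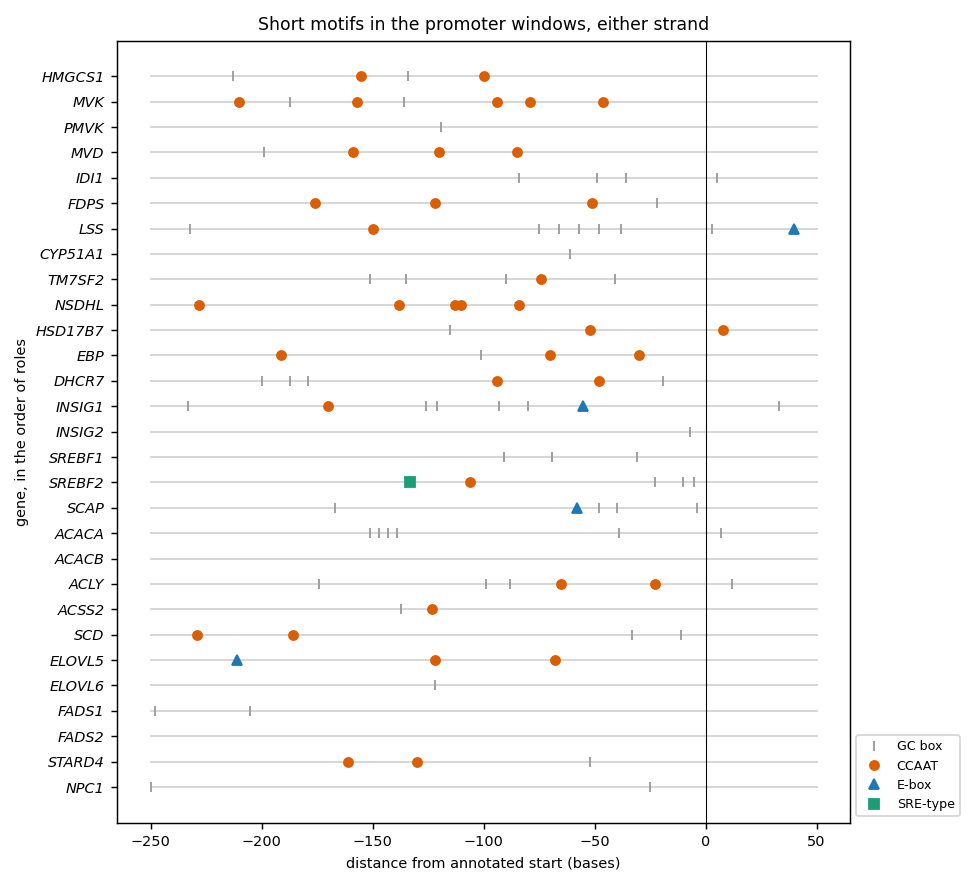
Positions of 4 motifs in the promoter windows of 29 genes, on either strand. The horizontal axis is the distance in bases from the annotated start, and each mark is the first base of a match. CCAAT matches (orange circles) appear in 17 windows, most of them before the start, and the TCACNCCAC match (green square) in that of SREBF2.

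Of the 5 regulators, 4 were lower in both subclones, against 38.3% of expressed genes, and SREBF1 was higher in both, against 42.2%. Of the 4, SREBF2 and INSIG2 did not differ from the parent beyond counting error. SREBF1, which encodes SREBP-1, the factor known mainly for fatty acid synthesis genes, was at 20.1 RPKM in the parent (452 reads), 27.1 in subclone 1 (626 reads) and 35.0 in subclone 2 (829 reads). The 3 values did not overlap in their counting intervals, and the ratios to the parent were 1.35 (1.19 to 1.53) and 1.74 (1.55 to 1.96). SREBF2, which encodes SREBP-2, known mainly for sterol genes, was at 17.4 RPKM in the parent (338 reads), 15.6 in subclone 1 (312 reads) and 16.1 in subclone 2 (329 reads). Its ratios were 0.899 (0.768 to 1.05) and 0.925 (0.792 to 1.08), so any difference of SREBF2 was within counting error. The mRNA levels say nothing of how much of either protein was cut and active.

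SCAP, the escort of the SREBP factors, was at 19.9 RPKM in the parent (380 reads), 16.0 in subclone 1 (313 reads) and 17.0 in subclone 2 (341 reads). The ratios were 0.802 (0.688 to 0.934) and 0.852 (0.734 to 0.989), both with intervals below 1 and well short of 1.5-fold. INSIG1, a retention protein that is itself a target of the SREBP factors, was at 21.2 RPKM in the parent (288 reads), 17.3 in subclone 1 (241 reads) and 16.7 in subclone 2 (239 reads). Its ratios were 0.815 (0.684 to 0.970) and 0.788 (0.661 to 0.939). INSIG2, the other retention protein, was at 14.1 RPKM in the parent (164 reads), 12.8 in subclone 1 (153 reads) and 13.4 in subclone 2 (164 reads). INSIG2 did not differ beyond counting error, at ratios of 0.908 (0.724 to 1.14) and 0.950 (0.760 to 1.19).

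The 5 enzymes that make the fatty acid chain summed to 209.96 RPKM in the parent, with 175 in subclone 1 and 181 in subclone 2. Of these, 3 were lower in both subclones, against 38.3% of expressed genes, and 2 were higher in both, against 42.2%. In either direction 0 passed 1.5-fold. FASN, fatty acid synthase, was at 80.2 RPKM in the parent (3055 reads), 54.8 in subclone 1 (2141 reads) and 66.8 in subclone 2 (2676 reads). All 3 intervals of FASN were apart, with ratios to the parent of 0.682 (0.645 to 0.721) and 0.832 (0.790 to 0.877). ACLY, which makes cytosolic acetyl-CoA from citrate and so feeds both pathways, was at 98.1 RPKM in the parent (1960 reads), 89.8 in subclone 1 (1843 reads) and 83.8 in subclone 2 (1763 reads). The ACLY ratios, 0.916 (0.859 to 0.976) and 0.855 (0.801 to 0.912), were close to 1, with narrow counting intervals. These intervals leave out the choice of scaling. For subclone 1, the scalings and pseudocounts placed the log2 ratio of ACLY between -0.26 and -0.11. Those for subclone 2 lay between -0.26 and -0.16.

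ACACA, the acetyl-CoA carboxylase of fatty acid synthesis, was at 20.4, 17.4 and 17.1 RPKM in the parent, subclone 1 and subclone 2. Its mitochondrial counterpart ACACB, whose product restrains fatty acid oxidation, went the other way at a low level, at 1.66 RPKM (69 reads), 2.30 (98 reads) and 2.51 (110 reads). The ACACB ratios were 1.38 (1.01 to 1.91) and 1.51 (1.11 to 2.08), and the latter was just short of 1.5-fold after 0.1 RPKM was added. ACSS2, which makes acetyl-CoA from acetate, was at 9.49, 10.96 and 10.3 RPKM with intervals that include 1.

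The desaturases and elongases summed to 514 RPKM in the parent, with 434 in subclone 1 and 415 in subclone 2. FADS2, the first desaturase of polyunsaturated fatty acid synthesis, was at 97.2 RPKM in the parent (1374 reads), 66.3 in subclone 1 (962 reads) and 50.5 in subclone 2 (752 reads). It was ordered parent, subclone 1, subclone 2 with no overlap of intervals, at ratios of 0.682 (0.627 to 0.741) and 0.520 (0.475 to 0.569). FADS1, the next desaturase of that route and its neighbour on chromosome 11, had the same order, at 81.1, 68.7 and 57.0 RPKM, with ratios of 0.848 (0.789 to 0.911) and 0.703 (0.652 to 0.758). Exons of FADS2 overlap those of FADS1 on the other strand and those of FEN1 on the same strand, so the values of the pair may share reads.

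SCD was at 233 RPKM in the parent (5729 reads), 201 in subclone 1 (5077 reads) and 206 in subclone 2 (5339 reads). Its ratios were 0.863 (0.831 to 0.896) and 0.885 (0.853 to 0.919), a small difference with narrow counting intervals. Scaling and pseudocount placed the log2 ratio of SCD in subclone 1 between -0.34 and -0.20. In subclone 2 it stayed between -0.21 and -0.11. ELOVL5, which elongates polyunsaturated chains, was at 79.5 RPKM in the parent (1072 reads), 70.1 in subclone 1 (971 reads) and 76.5 in subclone 2 (1085 reads), with ratios of 0.882 (0.808 to 0.963) and 0.962 (0.883 to 1.05). ELOVL6, which elongates palmitate, was slightly higher in subclone 1, at 23.3 RPKM in the parent, with 27.8 in subclone 1 and 24.8 in subclone 2. In subclone 2, FADS2 and FADS1 lay below the intervals of SCD and ELOVL5. In subclone 1, FADS2 lay below them too, whereas the intervals of FADS1, SCD and ELOVL5 overlapped.

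Of the sterol transport proteins, STARD4, which carries cholesterol between membranes, was at 5.22 RPKM in the parent (53 reads), 2.87 in subclone 1 (30 reads) and 4.39 in subclone 2 (47 reads). Subclone 1 was at 0.551 of the parent (0.340 to 0.879), and subclone 2 at 0.842 with an interval of 0.557 to 1.27. NPC1, which exports cholesterol from lysosomes, was at 57.8 RPKM in the parent, with 51.8 in subclone 1 and 58.3 in subclone 2. Subclone 1 was slightly low for NPC1 and subclone 2 equalled the parent within counting error. Exons of NPC1 overlap those of RMC1 on the other strand, so reads of the pair may not have been separated.

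Between the subclones, the 32 genes showed no shared direction. The median log2 ratio of subclone 2 over subclone 1 was 0.03 for them and 0.03 for all genes. At least 1.5-fold lower in subclone 2 were 0 of 32, against 4.11% of expressed genes, and at least 1.5-fold higher were 2, against 4.75%. The 2 were MVK, at a ratio of 1.51 (1.09 to 2.10), and STARD4, at 1.53 with an interval of 0.947 to 2.50 that includes 1. The counting interval lay below 1 for 3 genes, against 8.71% of expressed genes, and above 1 for 6, against 11.9%. The 9 together compare with 20.6% of expressed genes in either direction, and the 32 genes were the more deeply read.

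The 3 genes lower in subclone 2 than in subclone 1 were FADS2 (ratio 0.763, 0.692 to 0.840), FADS1 (0.830, 0.767 to 0.897) and ACLY (0.933, 0.874 to 0.997). The sign for ACLY turned when libraries were divided by ACTB or GAPDH. The 6 higher genes were MVK, LSS (1.44, 1.16 to 1.78), SREBF1 (1.29, 1.16 to 1.44), FDFT1 (1.24, 1.12 to 1.38), FASN (1.22, 1.15 to 1.29) and NPC1 (1.12, 1.04 to 1.22). Of these, MVK, LSS, FDFT1 and FASN stood in subclone 2 between subclone 1 and the parent, so they were lower than in the parent chiefly in subclone 1. For HMGCS1, IDI1, FDPS, SQLE, CYP51A1, NSDHL, HSD17B7 and DHCR7 the interval between the subclones included 1.

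**Figure D4:**
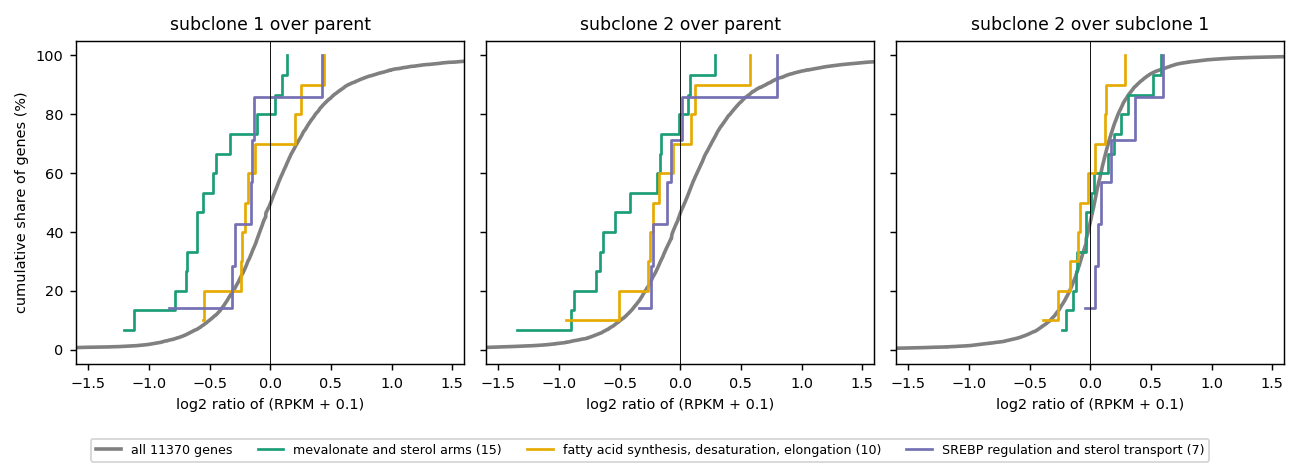
Cumulative share of genes by log2 ratio of (RPKM + 0.1), for the 11370 expressed genes (grey) and for 3 groupings of the 32 genes. The curve of the 15 mevalonate and sterol genes lies left of the grey curve in both comparisons with the parent, while between the subclones the medians over the 32 genes and over the expressed genes are both 0.03.

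Genes of the same pathways outside the 32 were counted by list. Of 8 further genes of sterol synthesis and SREBP processing, 1 was at least 1.5-fold lower in subclone 1, against 7.46% of expressed genes. In subclone 2, 2 were lower, against 7.3%. In either subclone 0 were higher, against 11.6% and 12.7% of expressed genes in subclones 1 and 2. The median log2 ratios of the 8 genes were -0.03 and -0.08. MSMO1, which works on sterol methyl groups after CYP51A1 and is listed under its older symbol SC4MOL, was at 50.3 RPKM in the parent, with 25.7 in subclone 1 and 26.0 in subclone 2. ACAT2, which joins acetyl-CoA units before HMGCS1, was at 29.9, 20.5 and 16.7 RPKM. The other 6 genes of this list differed by less than 1.5-fold from the parent in both subclones. MSMO1 and ACAT2 were chosen after their values were seen.

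Of 23 further genes linked to fatty acid synthesis and elongation, 22 were listed and 19 were among the expressed genes. The list is broader than the enzymes of synthesis and elongation, and the 19 include ACSL1, ACSL3, ACSL4, ACSL5, SLC25A1, LPIN1, NR1H2 and NR1H3. Of these 19, 4 were at least 1.5-fold lower in subclone 1, against 7.46% of expressed genes, and 2 were higher, against 11.6%. In subclone 2, 3 were lower, against 7.3%, and 2 were higher, against 12.7%. The medians of the 19 were 0.07 and 0.13 on the log2 scale, above those of the 32 genes. ACSL1, which activates fatty acids with coenzyme A, was at 38.0 RPKM in the parent and 18.4 and 18.6 in the subclones, ratios of 0.485 (0.424 to 0.555) and 0.490 (0.428 to 0.559). NR1H3, which encodes the sterol-sensing receptor LXR alpha, was at 9.33 RPKM in the parent, with 16.9 in subclone 1 and 22.0 in subclone 2. The NR1H3 ratios were 1.81 (1.35 to 2.45) and 2.36 (1.79 to 3.15). ELOVL7, another elongase, was at 0.514 RPKM (9 reads), 1.39 (25 reads) and 2.33 (43 reads).

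Of 13 genes of sterol storage and efflux, 11 were listed, with medians of 0.11 and 0.07. At least 1.5-fold lower were 0 in either subclone, against 7.46% and 7.3% of expressed genes. At least 1.5-fold higher was 1 gene in subclone 1 (ABCA1) and 1 other in subclone 2 (ABCG1), against 11.6% and 12.7%. ABCA1, a cholesterol efflux pump named after its values were seen, was at 11 RPKM (519 reads), 16.9 (819 reads) and 15.5 (770 reads), ratios of 1.54 (1.37 to 1.72) and 1.41 (1.26 to 1.58). ABCG1, another efflux pump, was at 0.780 RPKM (11 reads), 1.17 (17 reads) and 2.16 (32 reads), a ratio of 2.76 (1.36 to 6.08) in subclone 2, while the interval in subclone 1 (0.665 to 3.55) included 1. Of 13 genes of fatty acid oxidation, 12 were listed. In subclone 1, 2 were at least 1.5-fold higher and 0 lower, against 11.6% and 7.46% of expressed genes. In subclone 2, 1 was higher and 0 were lower, against 12.7% and 7.3%. PPARA, the receptor that drives fatty acid oxidation in liver, was at 2.15 RPKM in the parent (97 reads), 5.48 in subclone 1 (254 reads) and 6.04 in subclone 2 (287 reads). The PPARA ratios were 2.55 (2.01 to 3.26) and 2.81 (2.23 to 3.58), and the medians of that list were 0.04 and 0.25.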

How the data were processed

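RNA of 3 HCC lines was extracted with Trizol and made into Illumina TruSeq libraries, 1 per line. The authors deposited RPKM values per gene, the reads scaled to gene length and library total, listing only genes above 0, and an unlisted gene was set to 0. The submitters' processing notes name the build hg19, while the aligner, the counting tool, the annotation, and how strand and shared reads were treated, are not given in the sources used here. The members and lists were chosen with earlier results of these data known. A gene of the list of further sterol synthesis genes is not reported here and was left out of that list.

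Whole reads were recovered from the steps of the RPKM values and the order of rows by reads, to a tolerance of 0.01 reads, with totals set from 1440 genes. They were found for 99.9% of the 11370 genes whose mean reached 1 RPKM (the expressed genes) and for all 32 members, and the recovery was tested on simulated data. Reads served only for exact Poisson intervals of levels and Clopper-Pearson intervals of ratios and shares (95%). Log2 ratios used RPKM plus 0.1. Because each line had 1 library, no p-value was computed, and a list is described by counts and medians beside those of the expressed genes. Members that differed by at least 1.5-fold in any comparison, the 5 with the highest means and the 5 regulators are given with full values. Genes of the other lists with a mean of at least 1 RPKM are named where at least 2-fold different. Those said to have been chosen later are exceptions. Genes below that mean were not named for their fold, whatever its size.

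As alternatives, the pseudocount was set to 0.01 or 1, the minimum mean was dropped or raised to 5 RPKM, the fold was set to 2, and the libraries were scaled in 5 other ways. These scalings used equal sums, the median log2 ratio, the upper quartile, ACTB and GAPDH. Promoters came from RefSeq (GRCh38.p14) and exon overlaps from GENCODE on GRCh38. Computation was done in Python 3.11.15 with scipy 1.17.1, numpy 2.4.6 and pandas 2.3.3.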

Additional observations from a re-analysis of the deposited data

Results flagged for a closer look

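For 3 genes, the ratio over the parent lay below 1 in one subclone and above 1 in the other. In each case the difference was not tested, since each line had 1 library. On the log2 scale, subclone 2 over subclone 1 gave -0.23 for MVD, 0.20 for EBP and 0.17 for NPC1. All intervals of MVD and EBP included 1, whereas for NPC1 the interval of subclone 1 over the parent (0.827 to 0.972) lay below 1 and that of subclone 2 over subclone 1 (1.04 to 1.22) above it. The sign of MVD in subclone 1 turned when libraries were divided by ACTB or GAPDH. The sign of NPC1 in subclone 2 turned when libraries were rescaled to the same sum, centred on the median or divided by the upper quartile. Opposite directions were seen in 19.4% of the expressed genes.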

How the results depend on the processing

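Of 87 values recomputed under the alternatives for the medians and counts of the 32 genes, 76 stayed within the set bounds and 11 did not. For a median, the bounds were the medians of the single genes' lower and upper counting limits (-0.57 to -0.09 in subclone 1). A count was within bounds if unchanged or changed by at most 1.5-fold, so that 8 and 12 counted as the same. These bounds are wide. Dropping the minimum mean could change nothing, since all 32 genes reached 1 RPKM. All 27 recomputed medians stayed within their bounds. They lay between -0.40 and -0.25 for subclone 1 over the parent and between -0.25 and -0.15 for subclone 2 over the parent. Between the subclones they lay from -0.02 to 0.16. At 2-fold, 2 genes were lower in subclone 1, 1 was lower in subclone 2, 0 were higher in subclone 2, and 0 were higher in subclone 2 than in subclone 1. For subclone 2 over the parent, the 1 gene that was 1.5-fold higher became 2 genes with a pseudocount of 0.01 or division by GAPDH, since ACACB lay near the threshold. For subclone 2 over subclone 1, the 2 genes became 0 with a pseudocount of 1, with centring or with the upper quartile, and 1 with the same sum or a mean RPKM of at least 5. These 2, MVK and STARD4, lay just past the threshold, at 0.59 and 0.60 on the log2 scale.

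Division by ACTB moved the median of the expressed genes to -0.13 in subclone 1 over the parent, where the 32 genes then stood at -0.40 and 12 of them were at least 1.5-fold lower. Division by ACTB or GAPDH moved that median between the subclones to 0.16 or 0.15. The direction of single genes held under all scalings and pseudocounts for 30 of 32 in subclone 1, 29 of 32 in subclone 2 and 20 of 32 between the subclones. No paired analysis was possible because each line had 1 library, and no library could be left out. Precision is limited by the reads of low genes such as TM7SF2 and HSD17B7, and variation between cultures of a line was not measured.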
